A study of Homo sapiens with 6 samples.

Results

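Ribosome biogenesis and nucleolar factors were followed as a set of 58 genes, listed by symbol with earlier results of these data known, among the 60835 distinct gene names of the deposited count table. Each of the 58 names matched 1 row, and all 58 passed the filter on low counts. The cells were HEY, an established human ovarian cancer line. A siRNA against CCNL2, which encodes cyclin L2, a regulatory partner of CDK11 kinases in transcription and splicing, was given to 3 libraries (siCCNL2), and 3 libraries had the control siRNA (siNC). Treatment lasted 48 h. The protocol text of the siNC libraries repeats the wording of the CCNL2 arm, so groups were taken from the titles and no separate time is stated for the controls. The labels name no clone, passage or siRNA sequence and no separate cultures behind the 3 libraries of a group, so the p-values rest on a library-to-library spread that could be technical only.

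Ribosomes are built in the nucleolus. RNA polymerase I (Pol I) copies the ribosomal DNA into a long precursor RNA, small nucleolar ribonucleoproteins (snoRNPs) direct its chemical modification and some of its cuts, and large sets of helicases, WD-repeat scaffolds, nucleases and GTPases fold and trim it into the small (40S) and large (60S) subunits. Cancer cells often have large nucleoli and a high output of ribosomes, and many of these genes are well known targets of the transcription factor MYC. The genes were grouped by step as 6 of Pol I transcription, 9 of snoRNPs, 23 of small subunit processing, 15 of large subunit processing and 5 multifunctional nucleolar proteins.

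Promoter letters, which the choice of the genes did not use, were searched for 3 motifs. RefSeq promoter sequences on GRCh38.p14 (250 bases before to 50 bases after the start) were matched by symbol for 49 of the 58. The E-box CACGTG, a palindrome that reads the same on both strands and is the letter pattern bound by MYC with MAX, occurred in 18 of these 49 (36.7%), against 1056 of 10751 tested genes with a promoter sequence (9.82%) and 2030 of all 27305 promoters (7.43%). It lay wholly before the start in 7 of the 18 and only across or after it in 11. Among the 49, the E-box was present in 6 of 11 genes that rose, 2 of 4 that fell and 10 of 34 that were not called. The members with the largest rises, NOLC1 (log2 fold change 1.23), TCOF1 (0.57) and MPHOSPH10 (0.35), had no matched promoter and are not in these counts. The GC box GGGCGG, searched on both strands, was in 38 of 49 (77.6%, against 69.3% of tested genes), and the ETS core CGGAAG, likewise on both strands, in 27 of 49 (55.1%, against 32.6%). A match describes letters in a window and not a bound site. The 100 bases before the start of 3 members are shown with the E-box in capitals, because 1 of these genes (NAT10, the acetyltransferase of 18S rRNA) rose and the other two (UTP18 and UTP20, of the small subunit processome) were not called. They lie at chr11:34105529-34105628 (plus strand), chr17:51260446-51260545 (plus strand) and chr12:101280005-101280104 (plus strand) of GRCh38.p14, and the first base of the E-box is at -15, -89 and -10 from the RefSeq start. The last 12 of the NAT10 bases fall inside the gene span of the deposited table.
NAT10: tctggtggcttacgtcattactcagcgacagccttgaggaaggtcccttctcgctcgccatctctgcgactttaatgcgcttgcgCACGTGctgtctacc
UTP18: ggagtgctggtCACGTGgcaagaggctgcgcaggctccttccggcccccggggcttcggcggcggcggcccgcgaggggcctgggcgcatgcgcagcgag
UTP20: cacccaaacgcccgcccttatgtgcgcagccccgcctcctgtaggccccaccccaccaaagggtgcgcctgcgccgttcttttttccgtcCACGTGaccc

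Total counts per library ran from 13596286 to 18095529, and 15346 genes were tested. The siRNA target CCNL2 stood at 261, 268 and 246 CPM (counts scaled to library size with TMM composition factors) in siNC and at 203, 182 and 186 CPM in siCCNL2, a fall of 26.3% (log2 fold change -0.44, SE 0.044). The edgeR quasi-likelihood test gave an adjusted p = 2.15e-08. The groups did not overlap, and a two-sided exact permutation test on the CPM returned 0.1, its lowest possible value with 3 libraries a side. Fewer cells of a type and less RNA per cell cannot be told apart in such bulk libraries. On the authors' TPM-like score, which divides by gene length, the ovarian lineage factor PAX8 averaged 97.2 in siNC and the keratins KRT7 and KRT8 1420 and 1070 (935 and 903 in siCCNL2), while EPCAM was low (3.65) and MUC16, an ovarian carcinoma antigen, was near 0 (0.00139). Of the 8 epithelial markers 5 fell (KRT7, KRT8, KRT18, PAX8, to 85.5 on the score, and WT1), EPCAM and KRT19 were not called and MUC16 was too low to test. Of the mesenchymal markers CDH2 rose (98.3 to 113 on the score, adjusted p = 3.53e-04), and VIM and FN1 were not called. Among markers of other cells, the leukocyte marker PTPRC (0.0786) and the hepatocyte marker ALB (0) were at or near 0 in siNC and were not tested. PDGFRB, of fibroblasts and pericytes (4.11 to 2.51 on the score, adjusted p = 0.00169), and PECAM1, of endothelium (1.08 to 0.408, adjusted p = 0.00126), were low and fell. The part of these marker shifts in the results that follow was not tested.

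Of the 58 genes 14 rose (24.1%), 4 fell (6.9%) and 40 were not called at an adjusted p under 0.05, where 17.2% of all tested genes rose and 16.5% fell. With upper-quartile factors 12 were higher and 8 lower. A fit of another kind, limma-trend on log2 of the TPM-like score plus 1, gave 10 and 6. Without siNC replicate 2 the fallers numbered 1, and without siCCNL2 replicate 1 they numbered 2. The groups did not overlap in 26 of 58 members (44.8%), beside 43.9% of all tested genes. The median log2 fold change of the set was 0.05, with quartiles of -0.08 and 0.13, against a median of 0 and quartiles of -0.19 and 0.2 over all tested genes. NOLC1 and TCOF1 lay far above the other members, and of the 58 only these 2 passed a test against a fold of 1.2.

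**Figure D1:**
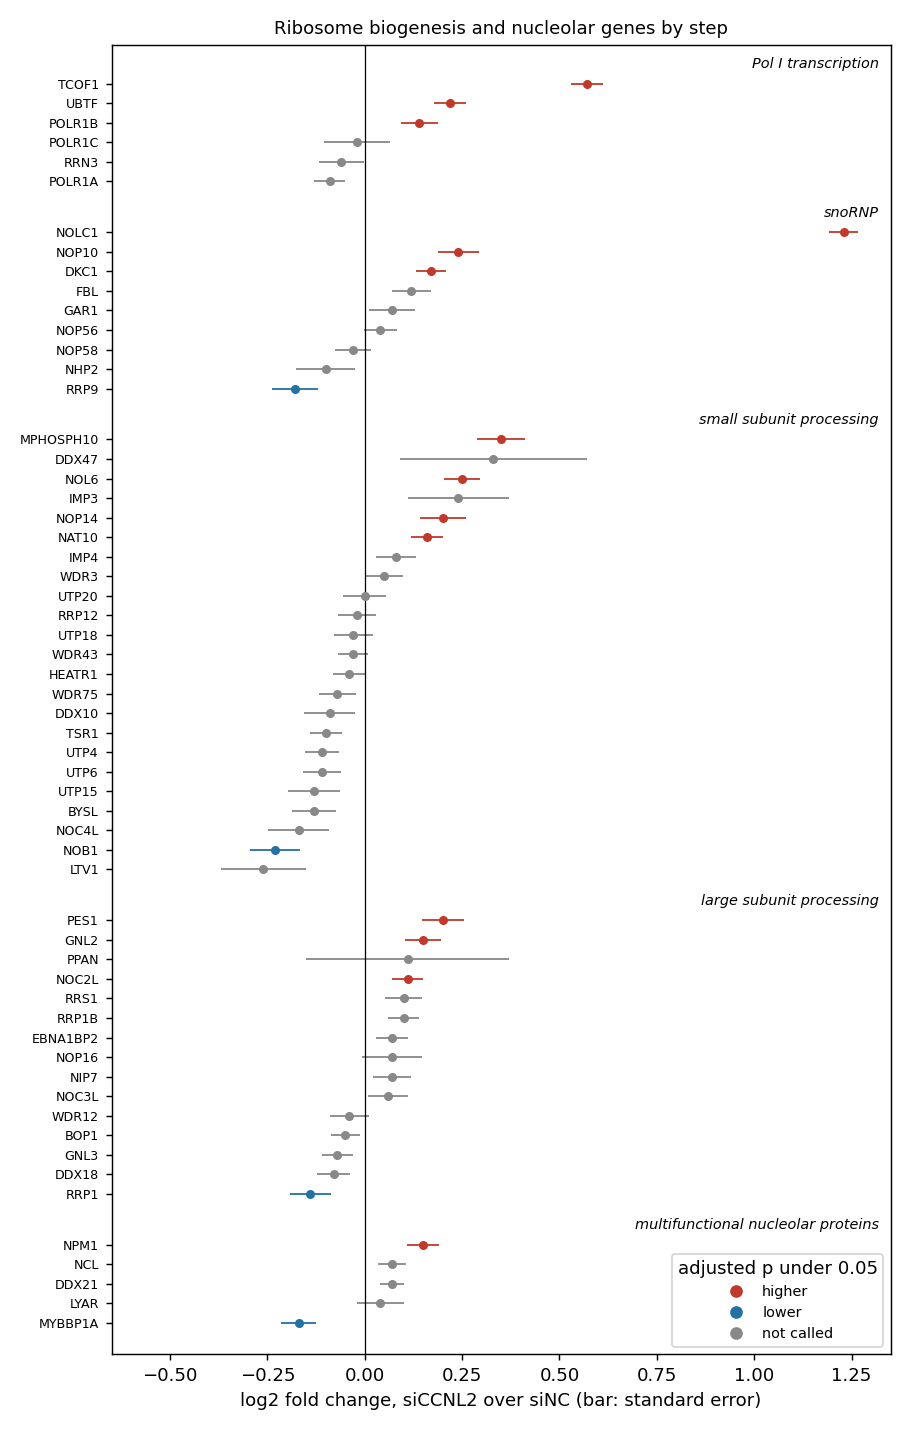
Log2 fold change of siCCNL2 over siNC for each of the 58 members, grouped by step and ordered by value, with the standard error as a bar and the call as colour. NOLC1 (1.23) and TCOF1 (0.57) lie to the right of all other members, which run from -0.26 to 0.35.

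NOLC1, also called Nopp140, is a phosphoprotein of the nucleolus and Cajal bodies that binds snoRNPs and Pol I. It had the largest change of the set. Its level was 176, 169 and 174 CPM in siNC and 399, 415 and 407 CPM in siCCNL2, so the lowest siCCNL2 library was far above the highest siNC library. The rise was 2.35-fold (log2 fold change 1.23, SE 0.037, adjusted p = 6.80e-18), rank 6 by p among all tested genes. On the TPM-like score it went from 134 to 313. NOLC1 (ENSG00000166197) lies on the plus strand of chromosome 10 at 102152176 to 102163871 of GRCh38, and no other gene of the deposited table overlaps it. The deposited table names 1 NOLC1 pseudogene that can share its reads. NOLC1 was called in each of 18 alternatives, with a log2 fold change of 1.22 at the lowest.

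TCOF1 encodes treacle, the nucleolar scaffold that holds Pol I and its factors at ribosomal DNA and is mutated in Treacher Collins syndrome. Treacle and Nopp140, a pair noticed here after their values were seen, are related in build, both with a LisH motif near the N terminus followed by alternating acidic and basic repeats. TCOF1 stood at 133, 131 and 124 CPM in siNC and at 189, 191 and 195 CPM in siCCNL2, with no overlap. It rose by 0.57 on the log2 scale (SE 0.041, adjusted p = 1.02e-10), and its values under the alternatives ran from 0.54 to 0.59. TCOF1 lies on the plus strand of chromosome 5 at 150357629 to 150400308.

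The other Pol I genes showed smaller differences. UBTF, the upstream binding factor that opens ribosomal DNA chromatin, stood at 130, 128 and 132 CPM in siNC and at 153, 148 and 152 CPM in siCCNL2 and rose (log2 fold change 0.22, SE 0.041, adjusted p = 1.68e-04). The antisense gene ATXN7L3-AS1 covers 11533 bases of UBTF, and reads of the pair cannot be told apart where strand was not used in counting. Of the Pol I subunits, POLR1B, the second largest, stood at 74.8, 74.7 and 72.6 CPM against 81.4, 82.3 and 80.9 CPM and rose by 0.14 (adjusted p = 0.0282). With any 1 library left out it missed the threshold (adjusted p from 0.0521 to 0.079). The largest subunit, POLR1A, had values of 149, 152 and 150 CPM in siNC and 143, 139 and 141 CPM in siCCNL2. Its groups did not overlap in the opposite direction, but it was not called (log2 fold change -0.09, adjusted p = 0.0731). POLR1C, shared with Pol III (-0.02), and RRN3, the TIF-IA factor that links growth signals to Pol I (-0.06), were not called, and both lie under long antisense partners (XPO5 over 40086 bases and PDXDC1 over 34279 bases). With 3 of 6 genes called higher and 0 lower (17.2% and 16.5% of all tested genes), the Pol I group summed to 564 ± 3.42 CPM in siNC and 643 ± 5.77 CPM in siCCNL2 (SD, n = 3), and to 435 ± 5.25 and 451 ± 4.84 CPM without TCOF1.

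Within the snoRNP group, the H/ACA particles guide pseudouridylation and share their core with telomerase. Their catalytic subunit dyskerin, DKC1, stood at 163, 171 and 163 CPM in siNC and at 184, 185 and 188 CPM in siCCNL2 and rose (0.17, SE 0.039, adjusted p = 0.00175). NOP10, the small core protein that braces dyskerin, stood at 67.5, 66.7 and 73.0 CPM against 80.3, 86.1 and 79.1 CPM and rose (0.24, SE 0.053, adjusted p = 8.85e-04). The remaining core proteins GAR1 (0.07) and NHP2 (-0.10) were not called.

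The C/D particles guide ribose methylation. Their methyltransferase fibrillarin, FBL, stood at 188, 208 and 194 CPM in siNC and at 197, 233 and 211 CPM in siCCNL2, with overlapping groups (0.12, SE 0.05, adjusted p = 0.0724). It passed the threshold when siNC replicate 2 was dropped (adjusted p = 0.0419), when siCCNL2 replicate 1 was (0.00561) and with the replicate number as a block (0.0203). The scaffold pair NOP56 (0.04) and NOP58 (-0.03) was not called, while SNU13, the C/D core gene on the list of other pathway genes, fell (-0.22, adjusted p = 1.24e-04). RRP9, the U3 snoRNP protein, stood at 51.0, 53.7 and 51.0 CPM against 45.6, 43.2 and 48.4 CPM and fell (-0.18, SE 0.059, adjusted p = 0.0212). RRP9 missed the threshold if siNC replicate 2 (0.0962), siCCNL2 replicate 1 (0.0533) or siCCNL2 replicate 2 (0.108) was dropped. The whole snoRNP group of 9, with 3 higher (33.3%, against 17.2% of all tested genes) and 1 lower (11.1%, against 16.5%), summed to 1090 ± 16.5 CPM in siNC and 1370 ± 50.6 CPM in siCCNL2 (SD, n = 3). Without NOLC1 the sums were 921 ± 20 and 968 ± 42.6 CPM.

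**Figure D2:**
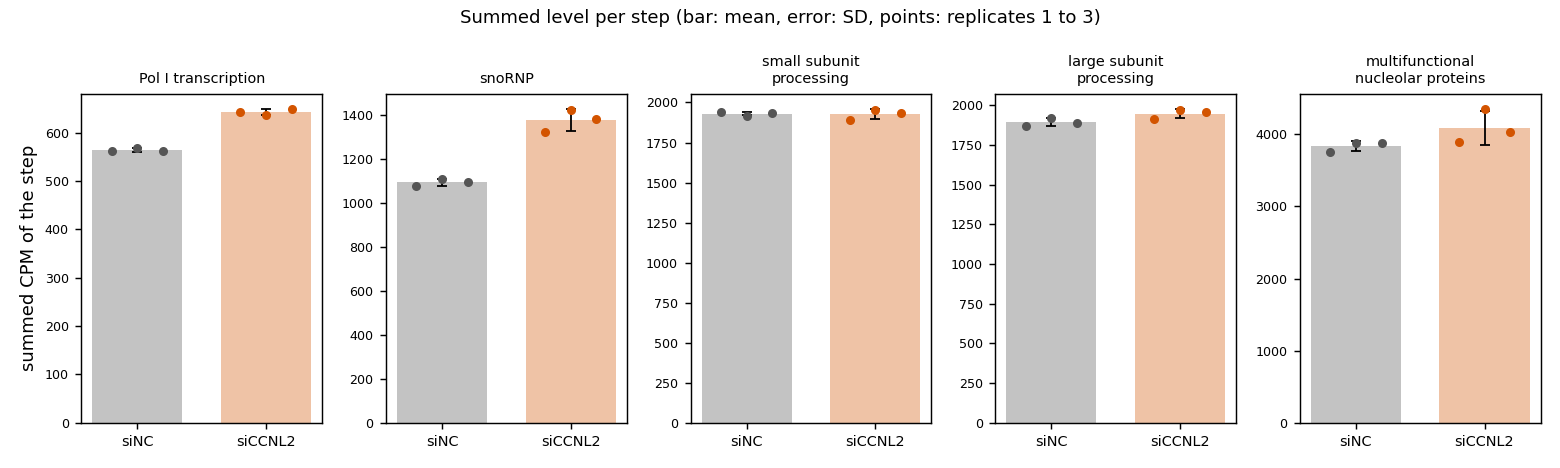
Summed CPM of each step per library, with bars for the group mean, error bars for the SD and points for replicates 1 to 3, each panel with its own axis from 0. The Pol I, snoRNP and multifunctional sums of all 3 siCCNL2 libraries lie above all 3 siNC libraries (means 643 against 564, 1370 against 1090 and 4090 against 3830 CPM), and the small and large subunit sums overlap. Without NOLC1 the snoRNP sums overlap too (921.5 CPM in siCCNL2 replicate 1, 940.3 CPM in siNC replicate 2). The multifunctional sums come close, at 3892 CPM in siCCNL2 replicate 1 and 3873 CPM in siNC replicate 3. In that step the mean of NPM1 alone went from 1610 to 1790 CPM.

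Of the 23 small subunit genes 4 rose (17.4%, against 17.2% of all tested genes), 1 fell (4.35%, against 16.5%) and 18 were not called, with a median log2 fold change of -0.03 and summed levels of 1930 ± 11.5 CPM in siNC and 1930 ± 31.3 CPM in siCCNL2. MPHOSPH10, a scaffold of the U3-bound Mpp10 complex, stood at 38.9, 39.1 and 35.6 CPM in siNC and at 46.7, 49.7 and 48.9 CPM in siCCNL2 and rose by 0.35 (SE 0.061, adjusted p = 6.71e-05). Its partners IMP3 (0.24, adjusted p = 0.169) and IMP4 (0.08, adjusted p = 0.25) were not called, IMP3 at a mean of only 7.97 CPM in siNC. The deposited table names 8 MPHOSPH10 pseudogenes that can share its reads.

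NOL6, the homologue of yeast Utp22, stood at 101, 102 and 108 CPM in siNC and at 121, 120 and 129 CPM in siCCNL2 and rose (0.25, SE 0.046, adjusted p = 1.42e-04). NOP14 stood at 51.8, 53.8 and 53.8 CPM against 56.0, 64.5 and 63.0 CPM and rose (0.20, SE 0.059, adjusted p = 0.011), with replicate 1 the lowest of the siCCNL2 libraries. Its call was lost without siCCNL2 replicate 2 (adjusted p = 0.0559) or siCCNL2 replicate 3 (0.0647), and NOP14-AS1 overlaps it on the opposite strand over 23806 bases. NAT10 rose by 0.16 (SE 0.041, adjusted p = 0.00293), from 138 ± 3.52 to 155 ± 2.6 CPM (SD, n = 3).

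Several scaffold genes of the early processome were not called. Of the t-UTP subcomplex, which also supports Pol I transcription, the members UTP4 (-0.11), UTP15 (-0.13), HEATR1 (-0.04), WDR43 (-0.03) and WDR75 (-0.07) did not pass the threshold, nor did NOL11, which is on the list of other pathway genes (0.10, adjusted p = 0.0673). UTP4 was close to it (adjusted p = 0.0559), and passed in 5 of 18 alternatives, among them upper-quartile factors (0.0231). UTP4 shares 43984 of its 99840 bases with SNTB2 on the same strand, where reads of the pair may not be told apart. The UTP-B genes UTP6 (-0.11), UTP18 (-0.03) and WDR3 (0.05), the large scaffold genes UTP20 (0.00) and RRP12 (-0.02), NOC4L (-0.17) and the helicase genes DDX10 (-0.09) and DDX47 (0.33) were not called either. The UTP-B genes WDR36 (-0.15, adjusted p = 0.00489) and TBL3 (-0.26, adjusted p = 0.00104), from the list of other pathway genes, fell. PWP2 of the same subcomplex was not called (-1.17, adjusted p = 0.214). Its counts were low and uneven, at 4.49, 0.821 and 0.0628 CPM in siNC and 1.65, 0.447 and 0.191 CPM in siCCNL2. DDX47 averaged 2.11 CPM in siNC and shares 16660 of its 16666 bases with APOLD1 on the same strand, so its counts are uncertain.

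Among the members, the late 40S factors NOB1, LTV1, BYSL and TSR1 had negative values, and 1 of these 4 passed the test. They were grouped after values were seen. Of all 23 small subunit members only 8 had positive values, and 16.5% of all tested genes fell. NOB1, the endonuclease that makes the final cut at the 3' end of 18S rRNA, stood at 52.6, 62.2 and 58.9 CPM in siNC and at 47.9, 53.5 and 47.4 CPM in siCCNL2. It fell by 0.23 (SE 0.065, adjusted p = 0.00891) although siCCNL2 replicate 2 lay above siNC replicate 1. Dropping siNC replicate 2 gave an adjusted p of 0.0848 and dropping siCCNL2 replicate 3 one of 0.069. LTV1, an adaptor of the pre-40S head, had the lowest log2 fold change of the set, at 16.7 ± 0.984 and 14.1 ± 2.16 CPM (-0.26, SE 0.11, adjusted p = 0.0701), and the groups overlapped. It passed without siCCNL2 replicate 2 (adjusted p = 0.0118). BYSL (-0.13, adjusted p = 0.071) and TSR1, a GTPase-like factor of the pre-40S particle (-0.10, adjusted p = 0.0669), did not overlap between the groups and were not called. Late 40S genes on the list of other pathway genes went both ways, with RIOK1 higher (0.27, adjusted p = 0.0249), PNO1 lower (-0.21, adjusted p = 0.0273) and RIOK2 not called (0.03).

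Large subunit genes gave 3 rises (20.0%, against 17.2% of all tested genes) and 1 fall (6.67%, against 16.5%) among 15, a median of 0.07 and sums of 1890 ± 25.2 and 1950 ± 28.1 CPM. PES1, BOP1 and WDR12 form the PeBoW complex, needed to process the 28S and 5.8S precursor. PES1 stood at 134, 137 and 144 CPM in siNC and at 142, 170 and 166 CPM in siCCNL2, so that siCCNL2 replicate 1 fell inside the siNC range. PES1 rose in the fit (0.20, SE 0.054, adjusted p = 0.0055), but not without siCCNL2 replicate 3 (adjusted p = 0.0563). Its partners BOP1 (-0.05, adjusted p = 0.368) and WDR12 (-0.04, adjusted p = 0.593) were not called, and WDR12 lies over CARF on the opposite strand for 76050 bases.

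GNL2, a nucleolar GTPase of pre-60S export, stood at 120, 126 and 116 CPM in siNC and at 138, 137 and 128 CPM in siCCNL2 and rose (0.15, SE 0.046, adjusted p = 0.0109), a call lost without siNC replicate 3 (0.0507). Its relative GNL3, nucleostemin, was not called (-0.07). NOC2L, a large subunit factor that also inhibits histone acetyltransferases, stood at 169, 174 and 175 CPM against 182, 186 and 193 CPM and rose by 0.11 (SE 0.04, adjusted p = 0.0308). NOC2L missed the threshold if siNC replicate 1 (0.124), siNC replicate 2 (0.0606) or siCCNL2 replicate 3 (0.156) was dropped. Its partner NOC3L was not called (0.06).

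RRP1 and RRP1B are paralogues that lie on chromosome 21. RRP1 stood at 65.2, 70.8 and 69.9 CPM in siNC and at 62.1, 60.9 and 63.8 CPM in siCCNL2 and fell (-0.14, SE 0.053, adjusted p = 0.0444). RRP1B, at 144 ± 0.239 and 154 ± 3.21 CPM, did not overlap either but on the higher side, and was not called (0.10, adjusted p = 0.0579). For RRP1 the adjusted p passed 0.05 on dropping siNC replicate 2 (0.166), siNC replicate 3 (0.121), siCCNL2 replicate 1 (0.0999), siCCNL2 replicate 2 (0.131) or siCCNL2 replicate 3 (0.0716). The difference between these paralogues was not tested. The remaining large subunit genes RRS1 (0.10), EBNA1BP2 (0.07), NIP7 (0.07), NOP16 (0.07), PPAN (0.11) and DDX18 (-0.08) were not called. PPAN averaged 2.13 CPM in siNC and shares its whole length of 5651 bases with the readthrough gene PPAN-P2RY11, so its counts are uncertain.

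**Figure D3:**
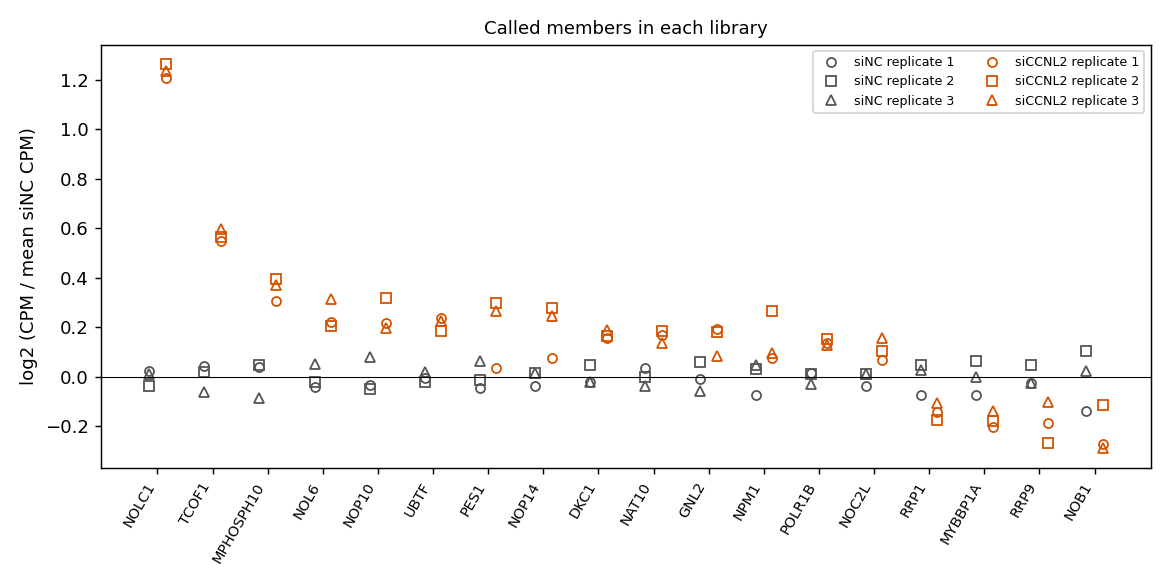
Level of the 18 called members in each library, as log2 of the CPM over the mean siNC CPM, with siNC in grey and siCCNL2 in orange and a symbol for each replicate number. The siCCNL2 points of NOLC1 and TCOF1 stand clear of all siNC points, while those of PES1 and NOB1 reach into the siNC range.

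The multifunctional nucleolar proteins include the most abundant members per length. NPM1, nucleophosmin, a chaperone of ribosome assembly and histones, averaged 1380 on the TPM-like score in siNC and NCL, nucleolin, which binds pre-rRNA, 993, against 2.42 for DDX47 at the low end. NPM1 stood at 1532, 1645 and 1665 CPM in siNC and at 1696, 1938 and 1721 CPM in siCCNL2 and rose by 0.15 (SE 0.041, adjusted p = 0.00737). The lowest siCCNL2 library was only just above the highest siNC library. NPM1 missed the threshold on dropping siNC replicate 1 (0.0644) or siCCNL2 replicate 2 (0.059), where the log2 fold change was 0.11 and 0.09, and 49 NPM1 pseudogenes named in the table can share its reads.

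NCL stood at 1377, 1371 and 1356 CPM in siNC and at 1345, 1512 and 1443 CPM in siCCNL2, with siCCNL2 replicate 1 below all siNC libraries. It was not called (0.07, SE 0.035, adjusted p = 0.149), and passed without siCCNL2 replicate 1 (0.00716, log2 fold change 0.11). The helicase gene DDX21 (0.07) and the growth regulator gene LYAR (0.04) were not called. MYBBP1A, which binds MYB and restrains Pol I transcription, stood at 128, 141 and 135 CPM in siNC and at 117, 119 and 123 CPM in siCCNL2. It fell by 0.17 (SE 0.045, adjusted p = 0.00453) with no overlap. MYBBP1A stayed called with any 1 library left out, but only just in 1 of these fits, where the adjusted p rounded to 0.05.

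Libraries of the siCCNL2 group differed among themselves over the set. The median member lay -0.007, 0.072 and 0.013 from the siNC mean on the log2 scale in siCCNL2 replicates 1, 2 and 3. Replicate 2 was the highest of the 3 siCCNL2 libraries for 27 of 58 members (46.6%), and for 34.5% of all tested genes. It also had the lowest total count, 13596286, and the part of depth in these values was not tested. Summed over the 58 genes, the siNC libraries held 9197, 9387 and 9357 CPM and the siCCNL2 libraries 9661, 10320 and 9952 CPM. Without NOLC1 the group sums were 9140 ± 105 and 9570 ± 323 CPM (SD, n = 3). Abundant genes weigh most in such sums. The multifunctional nucleolar proteins alone summed to 3830 ± 71.1 and 4090 ± 233 CPM, and the small subunit genes to 1930 ± 11.5 and 1930 ± 31.3 CPM.

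Other features of the set can be set beside these values. The median member ranked at the 85.1 percentile of mean CPM among tested genes, and 54 of 58 were above the middle, so these genes are counted more deeply than most. Small nucleolar RNA genes lay inside 8 members on the same strand, 25 in all, among them 5 in NOP56 and 4 each in NOP58 and GNL3. Of these 8 host genes 1 rose (DKC1) and 0 fell, with a median log2 fold change of 0.01. Of the other 50, 13 rose and 4 fell, with a median of 0.06. Over all tested genes 17.2% rose and 16.5% fell, and the difference between host genes and the other members was not tested. The members sit on 19 chromosomes, with at most 10 on any of them.

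A list of 95 further ribosome biogenesis genes was read in the same fit. Of these 95, all tested, 16 rose (16.8%), 22 fell (23.2%) and 57 were not called, with a median of -0.04. Over all tested genes 17.2% rose and 16.5% fell. The largest called rises were in DHX37, a helicase of the small subunit processome (0.57, 52.0 ± 2.33 to 77.0 ± 3.53 CPM, adjusted p = 1.54e-08), POLR1H, a small subunit of Pol I (0.57, 2.96 ± 0.595 to 4.43 ± 0.84 CPM with overlapping groups, adjusted p = 0.0415), and MAK16, of the large subunit (0.51, adjusted p = 2.76e-05). The largest called falls were in BUD23, the methyltransferase of 18S rRNA (-0.52, 59.6 ± 1.94 to 41.7 ± 1.14 CPM, adjusted p = 1.03e-07), ZNHIT6, which assembles C/D snoRNPs (-0.43, 122 ± 2.37 to 91.0 ± 6.18 CPM, adjusted p = 1.97e-07), and NGDN (-0.41, adjusted p = 1.14e-04). By step, 12 of 34 small subunit genes of this list fell and 4 rose, 7 of 43 large subunit genes fell and 6 rose, 2 of 8 snoRNP assembly genes fell and 2 rose, and 1 of 10 Pol I genes fell and 4 rose. The difference between this list and the 58 genes was not tested.

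**Figure D4:**
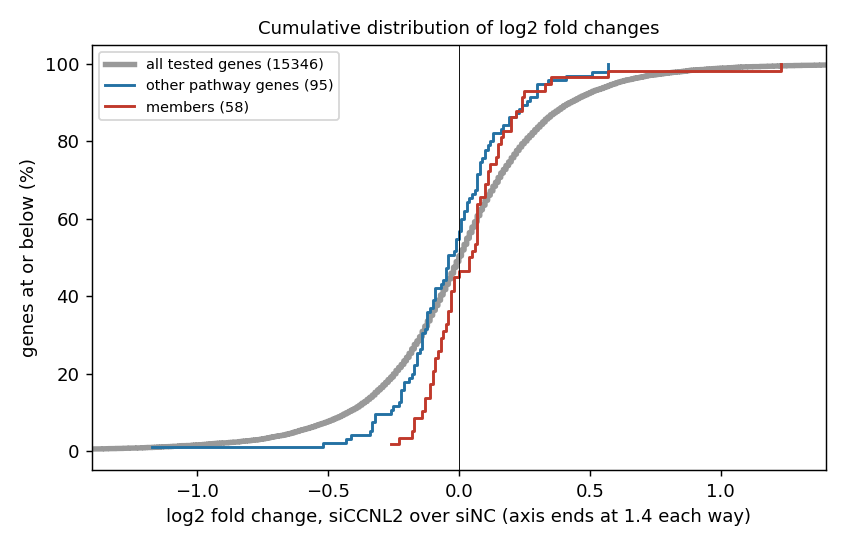
Cumulative share of genes (%) at or below each log2 fold change of siCCNL2 over siNC, for the 58 members, the 95 other pathway genes and all 15346 tested genes. The members' curve is steeper than that of all tested genes, with quartiles of -0.08 and 0.13 against -0.19 and 0.2, and has 1 point far to the right, NOLC1 at 1.23.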

How the data were processed

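Whole-number read counts per gene were deposited by the authors, not normalized. Per the submitters' processing notes, the tools were HISAT2, fastp 0.23.0 and HTSeq 2.0.1, and the build was GRCh38. Which annotation and strand option were used is not given in the sources used here. A further table deposited by the authors has, per gene and library, a score on a TPM-like, length-scaled scale. Repeated names were used once, leaving 60835 of 62710 rows. Genes passed filterByExpr (15346, holding 99.8% of counts in each library), were scaled by TMM and tested with edgeR 4.0.16 in R 4.3.3 (glmQLFit, glmQLFTest, no covariate), with Benjamini-Hochberg adjustment over all tested genes and a threshold of 0.05. The SE is the log2 fold change over the square root of F. Members, steps and gene lists were chosen with earlier results of these data known, and complexes within a step, with the other pathway genes named beside them (NOL11, WDR36, TBL3, PWP2, SNU13, RIOK1, RIOK2, PNO1), were grouped after values were seen. Values in every library are given for 8 anchor genes (NOLC1, POLR1A, UBTF, FBL, DKC1, NCL, NPM1, PES1) and, per step, up to 3 called members in each direction with the largest change. All 58 members were protein-coding in GENCODE 29 on the chromosome and strand of the deposited table. Alternatives comprised DESeq2 1.42.0, limma 3.58.1, other scalings and filters, stricter thresholds, a replicate block and leaving out each library.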

Additional observations from a re-analysis of the deposited data

How the results depend on the processing

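Over 18 alternatives, 8 of the 14 members that rose (NOLC1, TCOF1, UBTF, DKC1, NOP10, NOL6, MPHOSPH10 and NAT10) and 1 of the 4 that fell (MYBBP1A) were called in each of the 16 that used the threshold of 0.05. Some calls were also lost by method, with all libraries kept. Limma-trend on log2 of the TPM-like score plus 1 or 0.1 lost POLR1B, GNL2, NOC2L and NPM1. Upper-quartile factors lost POLR1B and NOC2L. Without a count filter POLR1B, NOC2L and RRP1 were lost, and with the DESeq2 Wald test POLR1B and RRP1. The number of higher members ran from 10 to 16 over those 16, and of lower members from 1 to 8, the 8 with upper-quartile factors. At an adjusted p under 0.01, 10 were higher and 2 lower. Against a fold of 1.2, 2 members were higher and 0 lower, and 3 and 2 of the other pathway genes. Leaving out each library gave 10 to 16 higher members, 1 to 5 lower members, 13 to 16 and 18 to 21 of the other pathway genes, a median of 0.02 to 0.05 for the set and -0.49 to -0.41 for CCNL2. The cause of these shifts was not tested, beyond the stricter thresholds by construction.

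Moves of a step median were set against the SD of the median member over the siCCNL2 libraries only. That median ran from 0.063 to 0.082 for Pol I and from 0.006 to 0.136 for snoRNP, so the limit differed by step. Step medians moved by more than this SD with upper-quartile factors (large subunit 0.05, Pol I 0.04, small subunit -0.05). They also did on log2 of the TPM-like score plus 1 or 0.1 (Pol I 0.05, small subunit -0.04 in both). Leaving out each library, they ran from 0.04 to 0.08 (large subunit), 0.05 to 0.08 (Pol I), -0.06 to -0.03 (small subunit), 0.03 to 0.1 (snoRNP) and 0.03 to 0.1 (multifunctional). Signs turned for 8 uncalled members, in 15 of 1044 member values, none of these 15 beyond 0.06. With 1 library left out in turn, log2 fold changes ran from -0.04 to 0.04 (POLR1C), -0.06 to 0.02 (UTP18), -0.04 to 0.01 (RRP12), -0.07 to 0.01 (NOP58), -0.20 to 0.00 (NHP2), -0.03 to 0.1 (LYAR), -0.06 to 0.24 (PPAN) and -0.07 to 0.06 (UTP20). UTP20 also turned, to 0.00, with a filter of 1 CPM and with limma-voom. NHP2 was called lower only on dropping siCCNL2 replicate 2 (adjusted p = 0.0352).

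Adding a replicate block to the model called 15 members higher and 4 lower, the added riser being FBL. Same-numbered libraries correlated at 0.041, 0.023 and 0.031 in their deviations from the group means, each the best match of both libraries. Deviations within a group are tied to each other by construction, so these matches are not independent. No level that would pair libraries was set, and whether they are paired was not tested. DDX47, PPAN and IMP3 have the fewest counts, and their standard errors (0.24, 0.26 and 0.13) leave room for changes as large as most of those called.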
